A study of Mus musculus with 12 samples.

Results

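The effect of zinc drinking water was examined in the ileum of mice that had all been injected with dexamethasone (Dex), a synthetic glucocorticoid. This comparison sets 3 against 3 of the 12 RNA-seq libraries of the series, each from a separate mouse, within 1 fit over all 12 libraries that share an estimate of the spread: 3 mice given 25 mM ZnSO4 in the drinking water for 7 days and then 200 µg of Dex (ZnSO4 + Dex), and 3 mice given normal water for the same time and the same Dex injection (water + Dex). The ileum was taken 2 h after the injection. The other 6 mice had the same water treatments followed by PBS without Dex (ZnSO4 + PBS and water + PBS, 3 mice each). All mice were of the strain C57BL/6J, which by the study's methods was bought as females, used as adults and kept free of specific pathogens. The comparison asks what zinc does to gene expression when the glucocorticoid receptor has just been activated, and all genes with enough reads were examined.

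Zinc enters the gut epithelium through importers of the Slc39a family and leaves the cytosol through exporters of the Slc30a family. Free zinc in the cell is sensed by the transcription factor MTF-1, which binds metal response elements (MREs) and switches on the metallothioneins, small cysteine-rich proteins that bind zinc. The ileal epithelium also carries a standing programme of defence genes, which is driven largely by the resident microbes and by interferons. Glucocorticoids act through the glucocorticoid receptor, a zinc finger protein that induces a set of target genes within hours and dampens inflammatory ones.

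Between 10760132 and 11435114 reads were counted on genes in the 6 Dex libraries. Of the 54838 genes in the deposited table, 15938 had enough reads to be tested. A gene was called when its adjusted p was under 0.05 (edgeR, quasi-likelihood test, Benjamini-Hochberg) and its log2 fold change (LFC) was above 0.8 in size. Levels are given in CPM, the read counts divided by a library size that TMM factors adjust and set to a common total, in the order mouse 1, mouse 2, mouse 3 of a group. The library of ZnSO4 + Dex mouse 2 stood apart: the summed level of 16 enterocyte markers was 14054 CPM in this mouse and between 28215 and 34069 CPM in the other 5, while 10 smooth muscle markers summed to 3641 CPM in it and to between 2261 and 2946 CPM in the others. Without this library, 78 of the 111 genes called higher and 129 of the 192 called lower below were still called, and named genes whose call it decides are given with and without it.

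With ZnSO4, 111 genes were higher (0.696% of the genes tested) and 192 were lower (1.20%). The levels of the 3 ZnSO4 + Dex mice did not overlap those of the 3 water + Dex mice in 302 of these 303 genes. The exception was *Igkv13-84*, an immunoglobulin variable gene singled out after its values were seen, at 83.4, 1.8 and 26.9 CPM with water and 0.82, 2.87 and 0 CPM with ZnSO4. Its call (LFC -4.88, adjusted p = 0.0491) was lost without any 1 library other than water + Dex mouse 2, with an adjusted p of up to 0.179. Without regard to a call, 12.7% of all tested genes were higher and 13.2% were lower with no overlap. In all, 1.90% of the tested genes were called, and the median LFC of all tested genes was 0.01. By the adjusted p alone, 291 genes (1.83%) were higher and 405 (2.54%) were lower. Without ZnSO4 + Dex mouse 2, 99 genes were higher and 142 were lower. The number of higher genes was 65 without water + Dex mouse 1 and 72 without water + Dex mouse 2. In every fit that left out 1 of the 12 libraries, 41 of the 111 higher genes and 102 of the 192 lower genes remained called. An LFC above 2 in size was found for 39 of the 192 lower genes and 16 of the 111 higher genes.

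**Figure D1:**
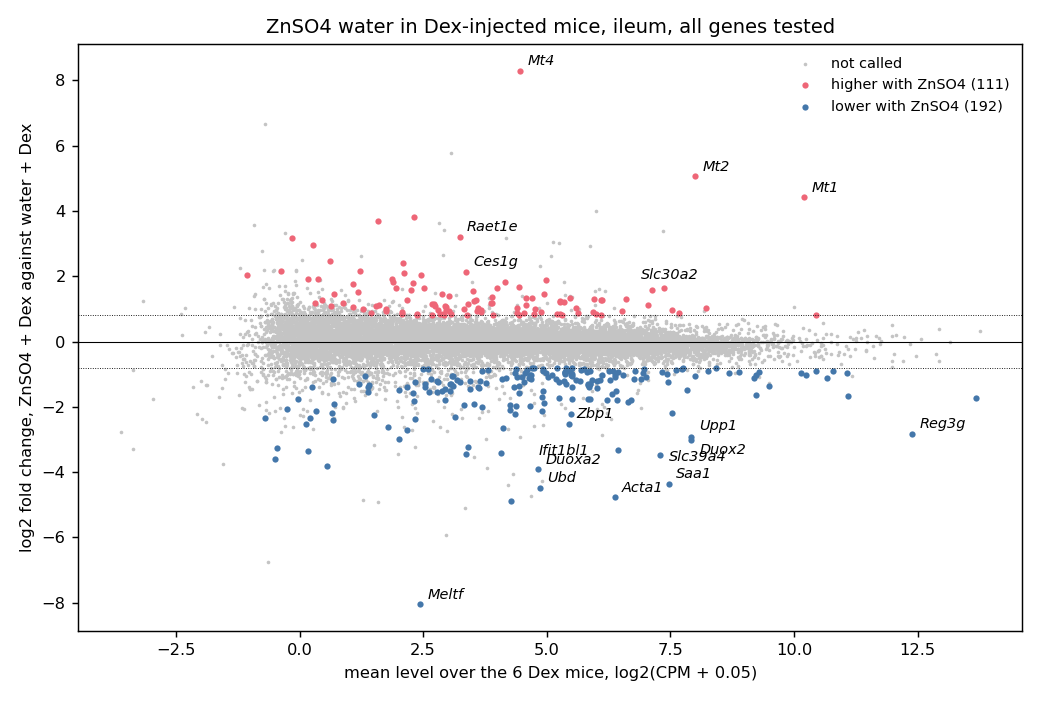
Each point is 1 of the 15938 genes tested, with its mean level over the 6 Dex mice, as log2(CPM + 0.05), on the x axis and its LFC between ZnSO4 + Dex and water + Dex on the y axis. The 111 genes called higher are red, the 192 called lower are blue, and the dotted lines mark an LFC of 0.8 in size. The metallothioneins *Mt1*, *Mt2* and *Mt4* lie highest among the called genes, and *Meltf* lies lowest.

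The metallothioneins gave the 3 largest rises. *Mt1* (chromosome 8, 94179082 to 94180327, mm10) stood at 96, 100.4 and 121 CPM with water and at 2269, 2456 and 2064 CPM with ZnSO4, a 21.4-fold rise (LFC 4.42 ± 0.28, SE, adjusted p = 1.33e-05). *Mt2*, its neighbour (chromosome 8, 94172664 to 94173568), was at 14.1, 13.2 and 17.6 CPM with water and at 491, 579.9 and 428 CPM with ZnSO4 (LFC 5.06 ± 0.36, adjusted p = 4.73e-05). For both genes the lowest ZnSO4 mouse was many times above the highest water mouse. *Mt4*, a metallothionein known mainly from squamous epithelia, was close to absent with water, with 4 reads over the 3 mice, against 1491 reads over the 3 ZnSO4 mice. The ratio of these counts was 348 (95% interval 136 to 1280, counting error only, adjusted p of the fit 0.000804). *Mt3* did not have enough reads to be tested. The antisense transcript *Gm45774* overlaps *Mt2* on the other strand and also rose (LFC 3.69). 73.5% of the *Mt2* exons lie under it, and since the strand setting of the counting is not given in the sources used here, reads of the pair may not be separated.

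Of the transporters tested, 1 of 8 exporters rose and 1 of 12 importers fell, and the other members of both families were not called. *Slc39a4* (Zip4), the main zinc importer of the enterocyte's luminal face, stood at 268, 283 and 309 CPM with water and fell to 25.2, 20.2 and 31.3 CPM with ZnSO4, 11.2-fold lower (LFC -3.49 ± 0.15, adjusted p = 9.14e-07). *Slc30a2* (ZnT2), a vesicular exporter prominent in Paneth cells, rose from 65.8, 74.8 and 69.1 CPM to 242, 169 and 216 CPM (LFC 1.58 ± 0.18, adjusted p = 0.00111). *Slc30a1* (ZnT1), the exporter of the cell membrane and a known MTF-1 target, was at 139, 116 and 142 CPM with water and at 185, 95.2 and 148 CPM with ZnSO4. These groups overlapped, and the 95% interval of its LFC ran from -0.30 to 0.52. None of 17 genes of iron and copper handling was called.

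**Figure D2:**
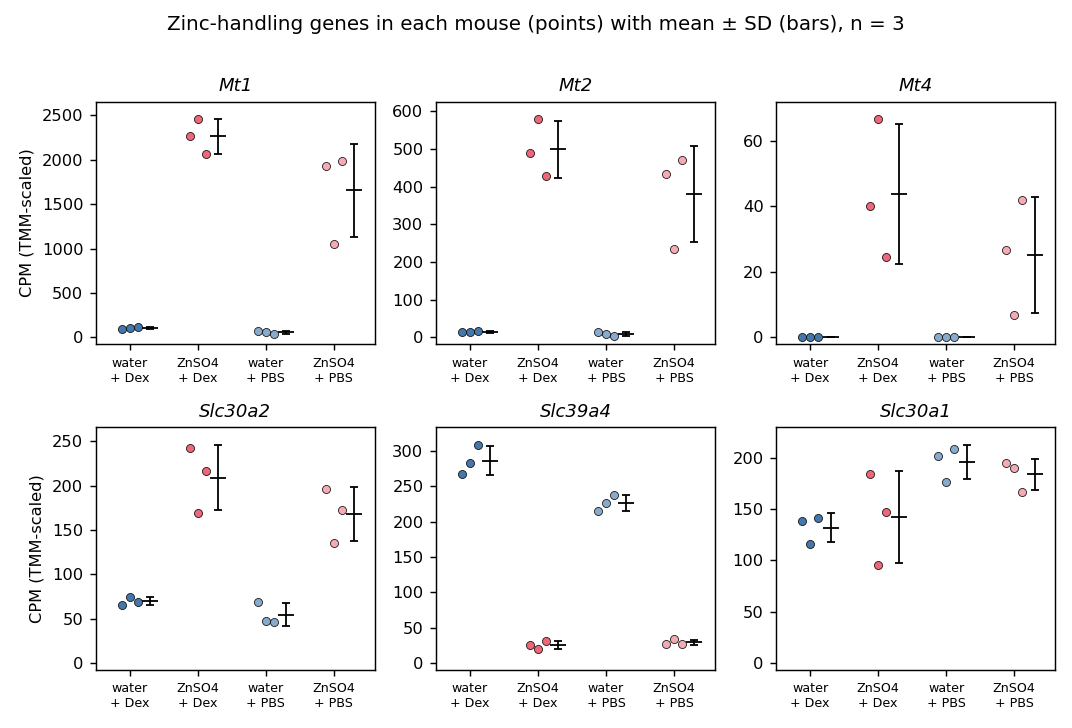
CPM of 6 zinc-handling genes in each of the 12 mice (points), by group on the x axis, with the mean and SD of 3 mice beside them (bars). *Mt1*, *Mt2*, *Mt4* and *Slc30a2* lie higher and *Slc39a4* lies lower with ZnSO4 in both the Dex and the PBS mice, while the 4 groups of *Slc30a1* differ little between water and ZnSO4.

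The stretches upstream of the zinc-responsive genes are shown because they hold the letters of the MRE core, TGCACNC or TGCGCNC, searched on both strands in the 250 bases before each RefSeq start (GRCm38.p6). Capitals mark the matches, and a match is a description of letters, not a shown site of binding.
Mt1: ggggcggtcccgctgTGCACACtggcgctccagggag
Mt2: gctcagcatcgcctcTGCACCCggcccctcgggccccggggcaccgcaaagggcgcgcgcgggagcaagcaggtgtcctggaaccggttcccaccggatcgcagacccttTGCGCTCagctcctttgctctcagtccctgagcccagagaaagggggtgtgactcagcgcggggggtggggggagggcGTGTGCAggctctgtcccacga
Mt4: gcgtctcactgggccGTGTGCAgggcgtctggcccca
Slc30a2: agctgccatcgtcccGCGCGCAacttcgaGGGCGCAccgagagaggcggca
The *Mt1* stretch is chr8:94179051-94179087, *Mt2* is chr8:94172380-94172589, *Mt4* is chr8:94137098-94137134 and *Slc30a2* is chr4:134343237-134343287, all on the plus strand. *Mt2* holds 3 matches, *Slc30a2* holds 2, and *Mt1* and *Mt4* hold 1 each. Such a match is common: it was found in 33.2% of the 11435 tested genes with a promoter sequence, in 29.2% of the 89 such genes that were called higher and in 19.6% of the 138 called lower.

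Among the other large rises, *Raet1e*, which encodes a stress ligand of the NKG2D receptor, went from 1.86, 2.09 and 1.52 CPM to 16.5, 20.4 and 14 CPM (LFC 3.21 ± 0.28, adjusted p = 0.000155). 55.5% of its 31-base stretches also occur in another gene, so its reads may be shared. *Ces1g*, a carboxylesterase, rose from 4.41, 4.56 and 2.37 CPM to 11.3, 17.7 and 21.2 CPM (LFC 2.14). The deacetylase *Aadac* (LFC 2.04), the steroid dehydrogenase *Hsd3b2* (LFC 1.92, with 37.6% of its 31-base stretches also found in other genes), the tubulin complex gene *Tubgcp2* (LFC 1.89) and *Fam189a2* (LFC 1.82) rose as well. In each of these genes, every ZnSO4 + Dex mouse was above every water + Dex mouse. This is no separate sign of a rise. The largest rises were named only among genes without overlap, and 302 of the 303 called genes had none. The receptor tyrosine kinase gene *Ret*, a marker of enteric neurons, went from 14.3, 15.7 and 19 CPM to 45.7, 42.7 and 46.2 CPM (LFC 1.46, adjusted p = 0.00156). The summed level of the 10 markers of enteric nerve and glia was between 49.4 and 61 CPM with water and between 83.7 and 91.3 CPM with ZnSO4. This sum includes *Ret* and is no separate sign of a rise of the list. *Ret* was the only called member and the only 1 of the 10 without overlap, and 2 members had a negative LFC.

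Several of the largest rises rested on few reads or on single libraries. *Defa31*, a Paneth cell alpha-defensin, had an LFC of 3.82 from 0.392, 0.475 and 1.04 CPM to 13.7, 5.57 and 8.35 CPM, but all of its 31-base stretches occur in other defensin genes, and the call was lost without water + Dex mouse 1, 2 or 3 or ZnSO4 + Dex mouse 1 or 3 (adjusted p up to 0.131). The kallikreins *Klk1b3* (LFC 2.40) and *Klk1b26* (LFC 2.96), *Cyp2w1* (LFC 2.46), *Defb37* (LFC 2.10) and *Alppl2* (LFC 1.92) were also called. Each lost its call without water + Dex mouse 1 and without ZnSO4 + Dex mouse 1. The calls of *Klk1b3*, *Klk1b26*, *Defb37* and *Alppl2* were also lost without water + Dex mouse 2, those of *Klk1b26*, *Cyp2w1*, *Defb37* and *Alppl2* without water + Dex mouse 3, those of *Cyp2w1* and *Alppl2* without ZnSO4 + Dex mouse 2 and that of *Defb37* without ZnSO4 + Dex mouse 3. The highest adjusted p among these fits was 0.0985, for *Defb37*. *Ano3* (LFC 2.16) lost it only without water + Dex mouse 1 (adjusted p = 0.0607).

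Of 23 genes of retinoid and carotenoid metabolism, 2 rose and 1 fell. *Rdh7*, a retinol dehydrogenase, rose from 8.43, 13.4 and 9.4 CPM to 37.8, 26.1 and 35.4 CPM (LFC 1.67, adjusted p = 0.00381). *Bco1*, which cleaves beta-carotene, was at 40.4, 35.6 and 45 CPM with water and at 112, 60.5 and 119 CPM with ZnSO4 (LFC 1.27). Its call was lost without water + Dex mouse 1, water + Dex mouse 2 or ZnSO4 + Dex mouse 1 (adjusted p up to 0.0681). *Dhrs9* fell (LFC -1.23), a call lost without any 1 of 5 Dex libraries, all but ZnSO4 + Dex mouse 1 (adjusted p up to 0.0988). Among 28 antioxidant genes and targets of Nrf2, the glutathione transferases *Gstm1* (LFC 1.03), *Gsta4* (LFC 1.23) and *Gsta1* (LFC 1.54) rose and the epithelial glutathione peroxidase *Gpx2* fell from 622, 574 and 656 CPM to 303, 330.2 and 338 CPM (LFC -0.93, adjusted p = 0.00454). The median LFC of this list was -0.01, and the transferase calls differed in stability. *Gstm1* was called in every fit, *Gsta4* was lost without water + Dex mouse 2, water + Dex mouse 3 or ZnSO4 + Dex mouse 2 (adjusted p up to 0.0649), and *Gsta1* was lost in 8 of the 12 fits that left out a library (adjusted p up to 0.143), namely those without water + Dex mouse 1, 2 or 3, ZnSO4 + Dex mouse 2 or 3, water + PBS mouse 3 or ZnSO4 + PBS mouse 1 or 2. For *Gsta1*, 92.9% of the 31-base stretches also occur in another gene.

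Genes that the ileal epithelium uses against microbes were lower with ZnSO4. Of 28 such genes, among them the dual oxidases, serum amyloids and Reg lectins, 10 fell, 1 rose and 17 were not called, and the median LFC was -0.90 against 0.01 for all genes. *Duox2*, the oxidase that makes hydrogen peroxide at the apical membrane, stood at 451, 411 and 424 CPM with water and at 45.6, 33.1 and 81.4 CPM with ZnSO4 (LFC -3.01 ± 0.26, adjusted p = 0.000155). Its maturation factor *Duoxa2* fell from 59.1, 47 and 53.3 CPM to 3.46, 1.69 and 5.54 CPM (LFC -3.91 ± 0.29, adjusted p = 5.72e-05), although 41.8% of its 31-base stretches are shared with other genes. *Nos2*, the inducible nitric oxide synthase, fell from 337, 248 and 325 CPM to 78.8, 33 and 86.4 CPM (LFC -2.20). In all of these the groups were far apart.

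The secreted products moved the same way. *Saa1*, a serum amyloid A protein induced by microbes that adhere to the epithelium, fell from 361, 262 and 393 CPM to 22.9, 10.6 and 16.1 CPM, 20.5-fold (LFC -4.36 ± 0.51, adjusted p = 0.00112). 46.8% of the 31-base stretches of *Saa1* occur in other genes, mainly *Saa2*, and *Saa2* had few reads, 39 over the 3 water mice and 4 over the 3 ZnSO4 mice, a ratio of 10.4 (95% interval 3.77 to 40.2). The *Saa2* call was lost without water + Dex mouse 1, 2 or 3 or ZnSO4 + Dex mouse 1 or 2 (adjusted p up to 0.0744). *Reg3g*, a lectin that kills Gram-positive bacteria, was among the most abundant transcripts of the tissue at 8989, 9550.0 and 9709 CPM with water, and was at 1709, 698 and 1585 CPM with ZnSO4 (LFC -2.82 ± 0.38, adjusted p = 0.0023). Its relative *Reg3b* fell from 19822, 19051 and 21433 CPM to 7680.4, 3199 and 7357 CPM (LFC -1.73), a call lost without water + Dex mouse 1, 2 or 3 (adjusted p up to 0.0669). *Fut2*, which fucosylates the epithelial surface, fell 6.3-fold from 33.8, 27.8 and 27.3 CPM to 4.01, 2.53 and 7.6 CPM. The only member that rose was *Reg4*, a lectin of goblet and endocrine cells, from 97.9, 70.2 and 75 CPM to 189, 294 and 271 CPM (LFC 1.63, adjusted p = 0.00951). Together the 28 genes summed to between 36562 and 39716 CPM with water and to between 8777 and 15255 CPM with ZnSO4. Most of the water sums came from *Reg3b* and *Reg3g*, so the fall of the sum is largely theirs. Without any 1 of the water + Dex mice 7 of the 28 genes were called lower, and without ZnSO4 + Dex mouse 2 there were 8.

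Some of the steepest falls lay outside the lists. *Meltf*, an iron-binding glycoprotein of the transferrin family, had 338 reads over the 3 water mice and 1 read over the 3 ZnSO4 mice, a ratio of 362 with a wide 95% interval of 64.5 to 14331. *Acta1*, the actin of skeletal muscle, fell from 159.6, 149 and 172 CPM to 8.11, 2.79 and 6.85 CPM (LFC -4.77 ± 0.51, adjusted p = 0.000771). The other 14 genes of actin and smooth muscle contraction were not called and their median, with *Acta1* included, was positive (0.39). *Ubd*, a ubiquitin-like modifier induced by interferon gamma and TNF, fell from 34.9, 82.8 and 49.7 CPM to 2.92, 1.44 and 3.19 CPM (LFC -4.48). *Upp1*, a uridine phosphorylase, went from 376, 476 and 421 CPM to 63.2, 54.9 and 50.3 CPM (LFC -2.92 ± 0.14, adjusted p = 1.28e-06), with narrow groups. *B3galt5*, a galactosyltransferase, fell from 26.7, 39.9 and 25.8 CPM to 2.83, 2.7 and 3.19 CPM (LFC -3.40). *Plet1* (LFC -3.45) was called as well, but not without water + Dex mouse 2 or any 1 of the ZnSO4 + Dex mice (adjusted p up to 0.0824). The immunoglobulin variable gene *Ighv1-69* (LFC -3.22) lost its call without water + Dex mouse 1 (adjusted p = 0.0506). *Igkv4-69* (LFC -3.82) and *U90926* (LFC -3.37) were rare, at no more than 5.19 CPM and 2.37 CPM in any Dex mouse. The *U90926* call was lost without water + Dex mouse 1 or 3 (adjusted p up to 0.0543). The *Igkv4-69* call was lost without water + Dex mouse 1 or 2, ZnSO4 + Dex mouse 1, 2 or 3, water + PBS mouse 1 or ZnSO4 + PBS mouse 2 (adjusted p up to 0.148).

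Genes that interferons induce were lower with ZnSO4. Of 36 interferon-stimulated effectors, 15 fell, none rose and 21 were not called, and their median LFC was -0.64. In 32 of the 36 the LFC was negative. *Ifit1bl1*, a member of the Ifit family of RNA-binding antiviral proteins (chromosome 19, 34592891 to 34601956), was at 163, 171 and 137 CPM with water and at 14.9, 15.6 and 16.7 CPM with ZnSO4 (LFC -3.32 ± 0.19, adjusted p = 5.23e-06). *Ifit1* fell from 29.4, 33 and 30.8 CPM to 6.93, 8.02 and 6.76 CPM (LFC -2.10 ± 0.23, adjusted p = 0.000796). *Zbp1*, a sensor of Z-form nucleic acids, fell from 69.5, 83.2 and 70.8 CPM to 11.6, 16.8 and 10.7 CPM (LFC -2.51). The ubiquitin ligase *Herc6* (LFC -2.01), the ISG15 protease *Usp18* (LFC -1.74) and *Isg15* itself (LFC -1.31) fell too. For all of these genes the levels of the 6 mice formed separate groups, as they did in 302 of the 303 called genes. Between 12 and 16 effectors were called when 1 of the 6 Dex libraries was left out, 13 of them without ZnSO4 + Dex mouse 2.

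**Figure D3:**
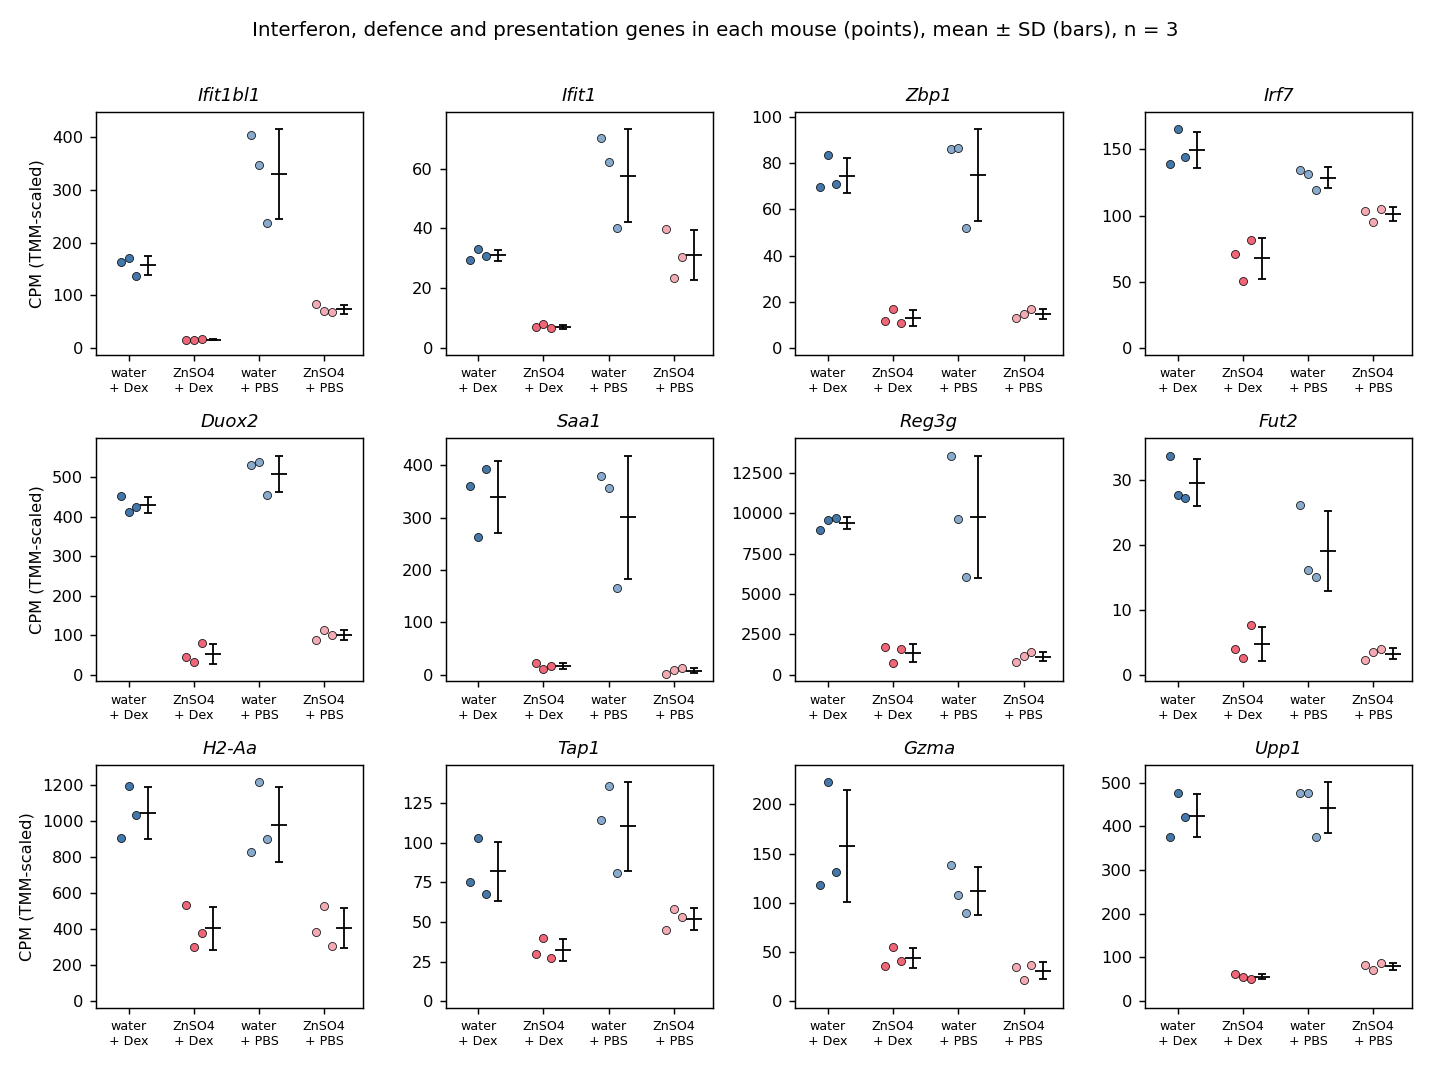
CPM of 12 defence, interferon and antigen presentation genes in each of the 12 mice (points), by group on the x axis, with the mean and SD of 3 mice beside them (bars). In all 12 genes the 3 ZnSO4 + Dex mice lie below the 3 water + Dex mice. *Ifit1bl1* and *Ifit1* have their lowest levels in the ZnSO4 + Dex group.

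Stretches upstream of interferon-induced genes that fell are shown because they hold a pair of GAAA runs with 2 bases of any kind between them, the core of the interferon-stimulated response element (ISRE), read on either strand. Overlapping matches are counted separately and merged in the capitals.
Ifit1bl1: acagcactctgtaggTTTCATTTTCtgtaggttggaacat
Ifit1: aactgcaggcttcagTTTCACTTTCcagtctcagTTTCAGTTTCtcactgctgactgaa
Isg15: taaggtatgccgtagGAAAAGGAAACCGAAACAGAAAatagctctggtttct
Igtp: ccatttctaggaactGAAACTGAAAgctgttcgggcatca
B2m: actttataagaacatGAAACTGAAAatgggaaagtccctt
These are chr19:34602048-34602087 on the minus strand for *Ifit1bl1*, chr19:34640770-34640828 on the plus strand for *Ifit1*, chr4:156200860-156200911 on the minus strand for *Isg15*, chr11:58199507-58199546 on the plus strand for *Igtp* and chr2:122147533-122147572 on the plus strand for *B2m*, in RefSeq's GRCm38.p6. The match was found in 3.41% of the 11435 tested genes with a promoter sequence, in 3 of 89 genes called higher (3.37%) and in 18 of 138 genes called lower (13.0%). Of the 15 interferon-stimulated effectors that fell, 11 had a promoter sequence and 6 of these held a match. The core TTCNNNGAA of the gamma-activated sequence was found in 7.23% of the tested genes and in 13.8% of those called lower. These shares describe the genes and were not tested.

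Of 16 IRF and STAT factors, *Irf7* and *Batf2* fell and 14 were not called. *Irf7*, the amplifier of type I interferon production, went from 139, 165 and 144 CPM to 70.8, 51 and 81.5 CPM (LFC -1.14, adjusted p = 0.00153). *Batf2* went from 11.6, 12.4 and 10.8 CPM to 4.56, 4.56 and 4.88 CPM (LFC -1.31). *Irf1* passed the adjusted p but not the cut-off on size (114, 119 and 125 CPM with water and 74.1, 76.3 and 80.9 CPM with ZnSO4, LFC -0.63, adjusted p = 0.00546). Of 15 interferon-induced GTPases of the IRG and GBP families, which attack vacuoles that hold pathogens, all had a negative LFC and 4 fell: *Gbp6* (LFC -1.82), *Igtp* (LFC -1.70), *Gbp8* (LFC -1.27) and *Irgm2* (LFC -1.22). *Igtp* stood at 47.9, 50.1 and 39.5 CPM with water and at 16.2, 17.6 and 8.35 CPM with ZnSO4. *Irgm2* lost its call without any 1 of the 6 Dex libraries (adjusted p up to 0.112), and 74.3% of the 31-base stretches of *Gbp6* also occur in other genes.

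Antigen presentation was lower as a whole in sign and in part by test. All 26 genes of MHC class I presentation had a negative LFC, 10 of them fell, and the median LFC was -0.74. *Nlrc5*, the transactivator of class I genes, fell from 30, 37.1 and 30.3 CPM to 10.4, 13.5 and 8.45 CPM (LFC -1.59, adjusted p = 0.00437). The peptide transporter *Tap1* went from 75.1, 103 and 67.7 CPM to 29.7, 40.1 and 27.4 CPM (LFC -1.34), and the immunoproteasome subunits *Psmb8* (LFC -1.18) and *Psmb9* (LFC -1.04) fell with it. The class I chains *B2m* (LFC -0.89) and *H2-K1* (LFC -0.90) fell by about the size of the cut-off, and without ZnSO4 + Dex mouse 2 both dropped below it (LFC -0.75 and -0.73). Without that mouse 6 class I genes were called. *H2-Q1* (LFC -1.38) and *H2-Q2* (LFC -1.07), which share 24.1% and 32.8% of their 31-base stretches with other genes, lost their calls without water + Dex mouse 1, 2 or 3 or ZnSO4 + Dex mouse 1, and *H2-Q2* also without ZnSO4 + Dex mouse 2 and each of 4 PBS mice, water + PBS 1, 2 and 3 and ZnSO4 + PBS 2 (adjusted p up to 0.0786 for *H2-Q1* and 0.136 for *H2-Q2*).

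All 11 genes of MHC class II presentation also had a negative LFC (median -1.17) and 6 fell. *H2-Aa*, a class II chain, was at 905, 1196 and 1038 CPM with water and at 535, 302 and 378 CPM with ZnSO4 (LFC -1.37, adjusted p = 0.00992). *H2-DMa* (LFC -1.17) and *H2-DMb1* (LFC -1.29), the peptide exchange factors, fell too. *Cd74*, the invariant chain, went from 1994, 2366 and 2327 CPM to 1335, 789 and 967 CPM (LFC -1.11). The calls of *Cd74* and *H2-Ab1* were lost without water + Dex mouse 2 or 3, that of *Cd74* also without ZnSO4 + Dex mouse 3, and that of *H2-Eb1* without any 1 of the 6 Dex mice (adjusted p up to 0.0744, 0.0746 and 0.119). Without water + Dex mouse 2, as without water + Dex mouse 3, 3 class II genes were called. The class II transactivator *Ciita* varied too much for a call, at 48.6, 22.7 and 17 CPM with water and 9.48, 9.71 and 13.8 CPM with ZnSO4 (LFC -1.42, adjusted p = 0.137).

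Transcripts of T cells and intraepithelial lymphocytes were lower in the same mice. In whole ileum, fewer cells of a type and less RNA per cell cannot be told apart. All 23 markers had a negative LFC, 9 of them fell, and their sum was between 390 and 597 CPM with water and between 161 and 195 CPM with ZnSO4. *Gzma*, a granzyme of cytotoxic lymphocytes, fell from 118, 222 and 131 CPM to 35.5, 54.9 and 41.2 CPM (LFC -1.84, adjusted p = 0.00427). *Gzmb* went from 40.1, 66.2 and 38.3 CPM to 10.5, 18.1 and 10.8 CPM (LFC -1.87). No defining marker was at 0 in either group. DESeq2 called 14 of these markers, and edgeR called 16 when fitted on the 6 Dex libraries alone. The 14 B cell markers all had a negative LFC (median -1.50), but none was called and only 1 was lower without overlap. Their sum was 352, 60.5 and 30.7 CPM in the water mice and 30.1, 35.7 and 116 CPM in the ZnSO4 mice. The highest of these sums was that of water + Dex mouse 1 alone. Among 16 markers of macrophages and dendritic cells 1 fell, and the sums overlapped (523 to 652 CPM with water, 490 to 537 CPM with ZnSO4). The part of lymphocyte numbers in the falls of interferon-induced and presentation genes was not tested.

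Of 24 genes of necroptosis and pyroptosis, 5 fell and none rose: *Zbp1*, which activates necroptosis, and *Il18*, *Casp4*, *Gsdmd* and *Tnfsf10*. *Il18*, the epithelial inflammasome cytokine, went from 52.3, 56.8 and 51.6 CPM to 23.5, 19.6 and 24.4 CPM (LFC -1.25, adjusted p = 0.00544). *Casp4*, the mouse caspase that senses lipopolysaccharide, went from 52.6, 57.2 and 55.4 CPM to 21, 27.4 and 33.9 CPM (LFC -1.01). *Gsdmd*, the pore-forming gasdermin, had an LFC of -0.94, and of -0.79 without ZnSO4 + Dex mouse 2, which is under the cut-off. *Tnfsf10* (TRAIL) was at the cut-off with an LFC of -0.82 and was under it without water + Dex mouse 2 or ZnSO4 + Dex mouse 3 (-0.67 at the smallest). Among 21 chemokines *Ccl8* fell from 5.98, 9.4 and 5.98 CPM to 0.729, 1.18 and 0.751 CPM (LFC -2.98, adjusted p = 0.000796). *Ccl5*, made by T cells, fell as well (LFC -1.52), a call lost without ZnSO4 + Dex mouse 1 (adjusted p = 0.0573).

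The response to Dex itself could be read from genes that glucocorticoids induce. *Fkbp5*, a chaperone of the receptor and one of its best known targets, was at 945, 916 and 1089.5 CPM in water + Dex mice and at 1073, 902 and 949.8 CPM in ZnSO4 + Dex mice, against 83.5 to 107 CPM in the 6 PBS mice. The Dex injection was thus visible in every Dex library, and the 95% interval of the LFC between the Dex groups ran from -0.27 to 0.24. *Tsc22d3* (GILZ) was at 463, 553 and 576 CPM with water and at 607, 487 and 579 CPM with ZnSO4 (interval -0.27 to 0.42). Over 34 glucocorticoid-induced genes the median LFC was 0.11, with 1 called higher and 1 called lower. *Sphk1*, a sphingosine kinase, rose from 3.72, 3.7 and 4.46 CPM to 8.75, 8.36 and 9.2 CPM (LFC 1.14, adjusted p = 0.00935). *Tat*, tyrosine aminotransferase, fell from 35.9, 30.1 and 55.7 CPM to 12.4, 10.8 and 7.6 CPM (LFC -1.98, adjusted p = 0.00358). *Pck1*, the gluconeogenic enzyme, was at 518, 832 and 636 CPM with water and at 1576, 856 and 1691 CPM with ZnSO4, and missed the threshold (LFC 1.05, adjusted p = 0.068). It was called without ZnSO4 + Dex mouse 2 (LFC 1.30) or water + PBS mouse 3, and also by DESeq2, with upper-quartile factors and with all genes of at least 1 count. The sum of the list was 8309 to 9014 CPM with water and 8289 to 11649 CPM with ZnSO4. The receptor gene *Nr3c1* was slightly lower in all 3 ZnSO4 mice (143, 124 and 124 CPM with water, 109, 101 and 107 CPM with ZnSO4, LFC -0.30, adjusted p = 0.0516), and none of the 16 tested genes of the receptor and its cofactors was called.

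In the list of insulin, FoxO and PHLPP signalling 2 of 21 genes fell. *Pik3ap1*, an adaptor of PI3 kinase, went from 32.9, 32.5 and 28.7 CPM to 11.6, 8.36 and 16.6 CPM (LFC -1.37, adjusted p = 0.0106). The phosphatase *Phlpp2* had an LFC of -0.88, and of -0.73 without water + Dex mouse 2 and -0.71 without ZnSO4 + Dex mouse 2. Of 17 genes of SOCS and cytokine feedback only the RNase *Zc3h12a* was called (LFC -0.84), and not without water + Dex mouse 2 or 3 or ZnSO4 + Dex mouse 1 or 2 (adjusted p up to 0.0974). Among 20 ER chaperones and genes of the unfolded protein response, 17 had a negative LFC (median -0.43). By the adjusted p alone 6 were lower, against 2.54% of all tested genes. Without overlap 16 were lower and 1 was higher, against 13.2% and 12.7% of all tested genes. Their sum was 6799 to 8245 CPM with water and 5556 to 6151 CPM with ZnSO4. Only *Sdf2l1* was called (LFC -0.81), with a value under the cut-off without water + Dex mouse 1 or 3 or ZnSO4 + Dex mouse 3 (-0.67 at the smallest). No gene was called in the lists of gluconeogenesis (14 tested), the integrated stress response (21), heat shock (15), sterol and fatty acid synthesis (30), fatty acid oxidation (27), bile acid handling (12), the circadian clock (18), immediate early genes (21), mitochondrial genome transcripts (13) or S and M phase (28). The sterol and fatty acid list had a median LFC of -0.30 and a sum of 6166 to 6999 CPM with water and 5011 to 5091 CPM with ZnSO4. The 13 mitochondrial transcripts summed to 30200 to 34708 CPM with water and to 37372 to 41286 CPM with ZnSO4.

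**Figure D4:**
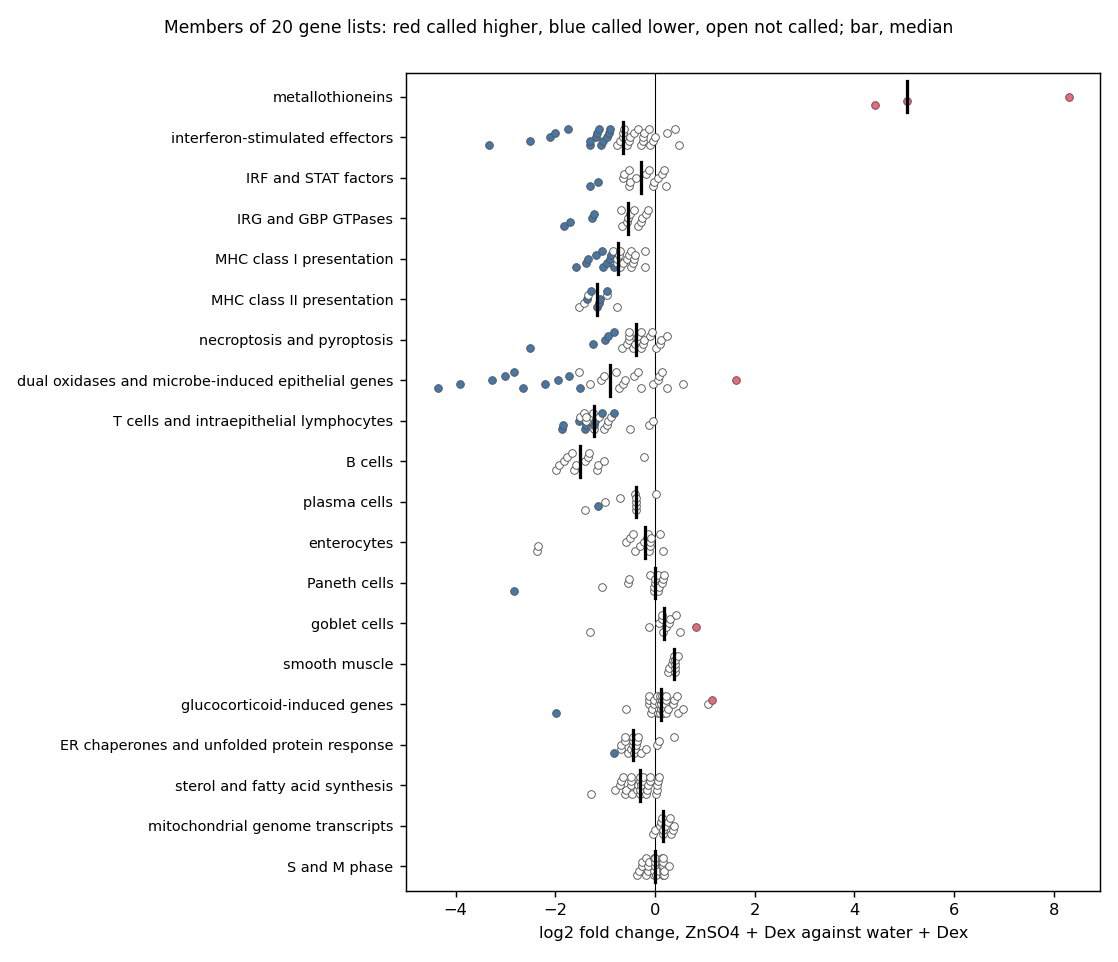
LFC between ZnSO4 + Dex and water + Dex (x axis) of the tested members of 20 gene lists (rows), each point a gene, filled red if called higher, blue if called lower and open if not called; the bar is the median of the list. All members of both MHC lists and of the T cell and B cell lists lie below 0, though no B cell member was called. The glucocorticoid-induced genes lie around 0 with a median of 0.11.

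Of the markers of other cells in the ileum, few were called. Epithelial markers of the small intestine were present, with 16 enterocyte markers, 15 Paneth cell markers and 12 goblet cell markers detected, and ileal bile acid genes summed to between 6233 and 11409 CPM in the 6 Dex mice. None of the markers of enterocytes, tuft cells, stem cells, smooth muscle, fibroblasts, endothelium, adipocytes or erythrocytes was called. *Reg3g* was the only Paneth cell marker that fell, and the median of that list was -0.01. In goblet cells *Muc2*, the gel-forming mucin, was called higher (LFC 0.83), but in 9 of the 12 fits that left out a library it was not (LFC 0.56 to 0.99), those without water + Dex mouse 1, 2 or 3, ZnSO4 + Dex mouse 1 or 3, water + PBS mouse 1, 2 or 3 or ZnSO4 + PBS mouse 2. The summed goblet cell markers did not overlap, at 15420 to 16314 CPM with water and 17523 to 20520 CPM with ZnSO4. The same held for tuft cells (84.7 to 97.1 and 116 to 118 CPM) and enteroendocrine cells (403 to 439 and 520 to 613 CPM). It was not particular to these cells. The sums of smooth muscle (2261 to 2425 and 2504 to 3641 CPM) and fibroblasts (1209 to 1392 and 1426 to 2006 CPM) were also higher without overlap. So were those of endothelium (213 to 235 and 239 to 251 CPM) and of mast cells and eosinophils (9.7 to 11.4 and 12.1 to 16.1 CPM). Of single genes, 12.7% were higher without overlap, and the sums were not tested. The summed markers of the proximal small intestine were lower with ZnSO4, also without overlap (434 to 561 and 250 to 344 CPM). Of the 8 tested members of that list 5 had a negative and 3 a positive LFC. Its only called member, *Gsta1*, was higher (LFC 1.54). *Tac1*, a tachykinin of enteroendocrine cells and neurons, fell against the direction of its list (LFC -0.88), a call lost without water + Dex mouse 1, 2 or 3 or ZnSO4 + Dex mouse 1 (adjusted p up to 0.0688). *Mzb1*, a chaperone of plasma cells, fell (LFC -1.15), a call lost without any 1 of the 6 Dex mice or water + PBS mouse 3 (adjusted p up to 0.126). *Itgam*, an integrin of myeloid cells, fell (LFC -1.05, adjusted p = 0.00459) and was called in each fit that left out a library. Of the 31-base stretches of *Itgam* 68.3%, and of those of *Mzb1* 55.1%, also occur in other genes, so their reads may be shared. The adipocyte sum ranged from 295 to 854 CPM with water and from 88.5 to 521 CPM with ZnSO4, and the smooth muscle markers all had a positive LFC (median 0.38).

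The 6 PBS mice allowed the same contrast without Dex, with levels from other mice, although all 12 libraries share 1 fit. In PBS mice 119 genes were higher (0.747%) and 152 were lower (0.954%) with ZnSO4. By the adjusted p alone there were 337 higher (2.11%) and 405 lower (2.54%) genes. Of the genes called higher in Dex mice, 63 were called higher in PBS mice as well, which is 56.8% of the Dex list and 52.9% of the PBS list. Of the genes called lower, 96 were shared, 50% of the Dex list and 63.2% of the PBS list. No gene was called in opposite directions. The LFC had the same sign in both contrasts for 105 of the 111 higher genes and 190 of the 192 lower genes, against 69.4% of all tested genes. The genes called lower in Dex mice had a median LFC of -1.29 in Dex mice and of -0.97 in PBS mice. The genes called lower in PBS mice had a median of -1.35 in PBS mice and of -1.19 in Dex mice, so each list was larger in the contrast that chose it. *Slc39a4* fell in both (LFC -3.49 and -2.95), as did *Upp1* (-2.92 and -2.47), *Duox2* (-3.01 and -2.34), *Saa1* (-4.36 and -5.26) and *Zbp1* (-2.51 and -2.33). *Mt1* rose in both (LFC 4.42 and 4.79).

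**Figure D5:**
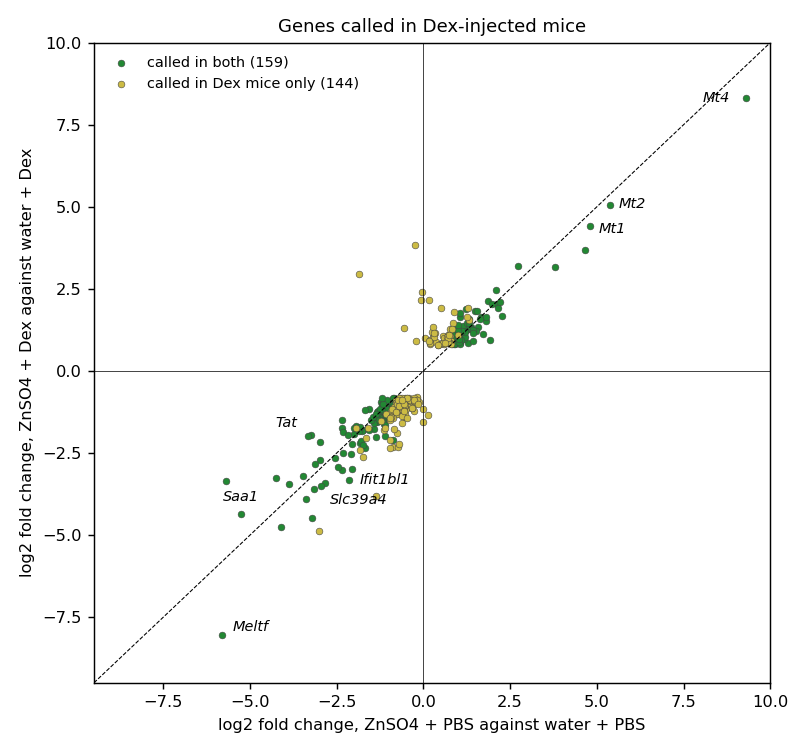
LFC with ZnSO4 in PBS mice (x axis) and in Dex mice (y axis) of the 303 genes called in Dex mice, green where the gene was called in the same direction in PBS mice (159 genes) and yellow where it was called in Dex mice only (144 genes). The dashed line marks equal values. By their definition the green points lie in the quadrants of equal sign.

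A gene called in Dex mice and not in PBS mice need not respond differently, so the difference between the 2 effects was tested for each gene. By edgeR no gene passed (lowest adjusted p = 0.952), while 794 genes (4.98%) had an unadjusted p under 0.05. DESeq2 called 6 genes: *Tram2*, *Igkv6-20*, *Ifit1bl1*, *Igkv9-124*, *2410002F23Rik* and *Gm26917*. *Igkv9-124* and *Gm26917* were named only because DESeq2 called them. *Gm26917* was also called higher under Dex (LFC 1.30), a call lost without water + Dex mouse 1 or 2, ZnSO4 + Dex mouse 1, 2 or 3, water + PBS mouse 2 or 3 or ZnSO4 + PBS mouse 2 (adjusted p up to 0.172). The 6 genes with the smallest edgeR p among those at 1 CPM or more included 4 of these, with *Slc25a32* and *Slc25a33* in addition. *Slc25a33*, a mitochondrial carrier of pyrimidine nucleotides, was at 13.7, 11.9 and 14.6 CPM in water + Dex and at 30.3, 32.8 and 39 CPM in ZnSO4 + Dex mice (LFC 1.34), but at 3.33, 3.7 and 3.42 CPM and 3.4, 4.42 and 4.72 CPM in the PBS groups (LFC 0.26, unadjusted p of the difference 0.00032). *Slc25a32*, a folate carrier, had an LFC of 0.57 under Dex and of -0.18 under PBS. *Tram2* had values of -0.56 and 0.40, and *2410002F23Rik* of 0.91 and -0.23. The Dex call of *2410002F23Rik* was lost without water + Dex mouse 2 (adjusted p = 0.051). *Igkv6-20*, an immunoglobulin gene with 26.8 CPM in 1 ZnSO4 + Dex mouse, had an LFC of 2.64 with an adjusted p of 0.0542. It was called without ZnSO4 + Dex mouse 3 (LFC 3.05) or water + PBS mouse 2, by DESeq2, with upper-quartile factors and under both other count filters.

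By number, the interferon-stimulated effectors held the most genes with a low unadjusted p of this difference, while by share the erythrocyte markers were higher with 3 of 5. Of the 36 effectors, 15 were called lower in Dex mice and 5 in PBS mice, and 11 (30.6%) had an unadjusted p of the difference under 0.05, all with the more negative LFC under Dex, against 4.98% of all genes. None of the 11 passed after adjustment in edgeR. The members of a list were read in the same mice and are not independent of each other, so such shares are descriptions and were not tested. *Ifit1bl1* was at 405, 348 and 237 CPM in water + PBS mice and at 83.4, 69.7 and 68.5 CPM in ZnSO4 + PBS mice, with an LFC of -2.16 under PBS and -3.32 under Dex (difference -1.16 ± 0.24, unadjusted p = 0.000475). *Ifit1* had an LFC of -0.88 under PBS and of -2.10 under Dex (unadjusted p = 0.00201), and *Irf7* of -0.34 and -1.14 (unadjusted p = 0.00175). The sum of the 36 effectors was 1568 to 2137 CPM in water + PBS mice, 1200 to 1284 CPM in ZnSO4 + PBS mice, 1309 to 1429 CPM in water + Dex mice and 643 to 712 CPM in ZnSO4 + Dex mice, the lowest of the 4 groups. In the MHC lists and in the T cell list none of the genes had an unadjusted p under 0.05. *Tat* was the reverse case, with an LFC of -3.33 under PBS and of -1.98 under Dex (unadjusted p = 0.00796), and *Sphk1* had an LFC of 0.31 under PBS and of 1.14 under Dex (unadjusted p = 0.0181). In the sterol and fatty acid list the medians were 0.22 under PBS and -0.30 under Dex, and 6 of 30 genes had an unadjusted p under 0.05, all more negative under Dex. All such genes were also more negative under Dex in necroptosis and pyroptosis (4 of 24), mitochondrial transcripts (2 of 13) and erythrocyte markers (3 of 5). Some lists went both ways or the opposite way. Of 34 glucocorticoid-induced genes 7 had such a p, 4 more negative and 3 more positive under Dex. In heat shock 3 of 15 genes and in S and M phase 4 of 28 genes had one, all more positive under Dex. Of the IRG and GBP GTPases, 4 were called lower under Dex and 7 under PBS, with medians of -0.55 and -0.85.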

How the data were processed

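Stranded single-end RNA-seq libraries were made from the ileum. According to the study's methods and the submitters' processing notes, the authors mapped reads to mm10 with HISAT 2.0.4 and assigned them to genes with featureCounts, where multimapping reads were not used. The deposited values are raw read counts per Ensembl gene. The annotation release and strand setting of the counting are not given in the sources used here. Total counts were 10760132 to 11827487 per library. The labels number 3 replicates per group, which the study gives as 3 mice.

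Counts were analysed in R 4.3.3 with edgeR 4.0.16 and limma 3.58.1: filterByExpr by group (minimum count 10), TMM factors, and 1 quasi-likelihood fit with 4 group means over all 12 libraries. Calls needed an adjusted p under 0.05 and an LFC over 0.8 in size. Errors are standard errors of the fit and intervals are at 95%. Ratios of genes with 10 or fewer reads in a group carry exact Poisson intervals, which cover counting error only. Symbols were known for 54723 of 54838 identifiers from the GENCODE M21 annotation of GRCm38. The tissue sums and lists use CPM scaled by TMM. Replicate pairs differed beyond sampling noise (chi-square per degree of freedom 7.63 to 41), so all libraries were counted separately. On simulated counts for this comparison (15736 genes), edgeR recovered 57% of changes with an LFC of 1 and 98% of those with an LFC of 2, with 3 unchanged genes called. DESeq2 1.42.0 recovered 65% and 99%, with 12 unchanged genes called.

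The genes named were the 15 largest rises and falls without overlap and at 1 CPM or more, up to 6 called members of each pathway list with its first 2 tested members, 4 zinc genes, 7 Dex-induced genes, the 6 smallest interaction p-values, the 15 largest rises and falls shared with PBS mice, and the 2 most abundant members of each marker list, of which the text gives those that carry a result. *Tac1*, *Mzb1*, *Itgam*, *Reg4*, *Nos2*, *Reg3b*, *Muc2*, *Igkv9-124*, *Gm26917* and *Igkv13-84* were chosen after their values were seen. The comparison and all lists were chosen with earlier results of these data known. Alternatives were DESeq2, RLE and upper-quartile factors, other count filters, the replicate block, a fit on the 6 Dex libraries, other cut-offs and leaving out each library.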

Additional observations from a re-analysis of the deposited data

How the results depend on the processing

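The counts of 111 higher and 192 lower genes under Dex kept within 1.5 times under DESeq2 (117 and 237), RLE factors (108 and 191), upper-quartile factors (135 and 177), all genes with at least 1 count (120 and 231), a filter of 10 counts that each library had to reach (100 and 176), a fit on the 6 Dex libraries (97 and 189) and an LFC cut-off of 1 (74 and 149). Without a cut-off on the LFC there were 291 higher and 405 lower genes, and 13 and 25 when the LFC was tested against 0.8 with glmTreat. Leaving out 1 library gave 65 to 114 higher genes, with 65 without water + Dex mouse 1 and 72 without water + Dex mouse 2, and 130 to 230 lower genes. DESeq2 called 100 of the 111 higher and 187 of the 192 lower genes. The difference between the Dex and PBS effects gave 0 genes with edgeR under every alternative run and 6 with DESeq2. With the replicate number as a replicate block, 95 higher and 189 lower genes were called, 91 and 172 of them called without it. Same-numbered Dex libraries did not deviate together (correlations of residuals from -0.22 to -0.06). Between the same-numbered PBS libraries the correlation was -0.02, 0.52 and -0.06 for numbers 1, 2 and 3. With 3 Dex pairs these values cannot decide whether the numbers pair mice. The LFC of *Fkbp5*, -0.01, was 0.030 with upper-quartile factors and -0.088 to 0.070 when 1 library was left out. That of *Slc30a1*, 0.11, ran from -0.12 (without ZnSO4 + Dex mouse 1) to 0.33, and that of *Tsc22d3*, 0.07, from -0.018 (without water + Dex mouse 1) to 0.16. None of these was called in any fit. Counts near 0 limit *Mt4*, *Meltf*, *Saa2* and *Klk1b26*, and in the simulation 3 mice a group recovered changes with an LFC of 1 only in part.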
